A study of Coelastrella tenuitheca with 9 samples.

Results

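The genes described here are those whose product name in the deposited expression table speaks of DNA replication, DNA repair or the cell cycle of Coelastrella tenuitheca S93-3, a green microalga of fresh water. They were chosen by product words alone (cyclin, MCM, replication factor, DNA polymerase, DNA repair, DNA ligase, topoisomerase, structural maintenance and the like, cyclophilin dropped), and 29 of 12605 genes matched. Product names come from matches to fungal proteins, so a name records likeness only, and no role was studied in this alga. Wild-type cultures of this single strain, all pre-cultured with glucose under continuous light and all in batch 1, were inoculated at equal density into medium with CdCl2 at 0 mg/L (Control), 20 mg/L (Cd20) or 50 mg/L (Cd50) and kept for 7 days. Poly(A) RNA of whole cells was sequenced in 3 libraries per group, named Control 1, Cd20 1, Cd50 1 and so on. Whether a group's 3 libraries stem from separate cultures is not in the labels, and p-values therefore cover the spread among libraries alone, which could be technical. RNA came from whole cultures, so fewer cells in a cell cycle stage and less RNA per cell cannot be told apart.

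Before a cell copies its DNA, ring-shaped MCM helicases are loaded at origins and later unwind the double strand. At the fork, replication factor C opens the sliding clamp and sets it on DNA, the clamp holds the polymerases in place, and DNA ligase joins the pieces. Topoisomerases release the twist, cyclin-dependent kinases and their cyclins time the steps, and proteins of structural maintenance of chromosomes shape the copies. Many green algae of this kind divide by multiple fission, in which a mother cell grows and then goes through rounds of replication and division in quick order.

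Library totals ran from 10457007 to 15456743 counts assigned to genes. Levels are CPM, counts put on a common library size with TMM factors, which were 0.940 to 0.994 in Control, 0.890 to 0.904 in Cd20 and 1.06 to 1.20 in Cd50. With library size alone in place of TMM, the median log2 fold change of all genes moved from -0.03 to -0.16 at 20 mg/L against control, from 0.03 to 0.26 at 50 mg/L against control and from 0.03 to 0.39 at 50 against 20 mg/L. Rises then made up 36.6% in place of 46.7%, 70.9% in place of 44.9% and 70.6% in place of 50.4% of all calls in these comparisons. Changes below are relative to the TMM scale. On the first principal component (60.6% of the variance) the Cd20 libraries had Control 1 and Cd50 1 as their nearest libraries of Control and of Cd50. The label of a photosynthetic cell was met by 15 genes for chlorophyll a-b binding proteins and 1 for the Rubisco small chain, 14 of these 16 passing the filter on low counts. The chlorophyll a-b binding genes summed to 797 to 888 CPM in Control, 714 to 868 in Cd20 and 840 to 883 in Cd50, and the Rubisco gene alone stood at 2135 to 2268, 1030 to 1131 and 1190 to 1445 CPM. Of the 14, 4 rose and 7 fell at 20 mg/L, or 28.6% and 50%, beside 23.8% and 27.2% of all tested genes. At 50 mg/L 4 rose and 5 fell, or 28.6% and 35.7%, beside 17.8% and 21.8% of all.

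The 29 genes did not move as one block. Most replication fork genes fell at 20 mg/L, at 50 mg/L 4 of the 5 MCM genes and a pair of abundant cyclin and kinase genes fell, and several fork genes were then at or above the control level. All 29 passed the filter on low counts, with 8 to 10298 counts per library. Against control, 3 rose and 9 fell at 20 mg/L, or 10.3% and 31.0% of the members, where 23.8% of all tested genes rose and 27.2% fell. The corresponding numbers at 50 mg/L were 5 and 7, or 17.2% and 24.1%, where 17.8% and 21.8% of all tested genes did. At 50 against 20 mg/L 13 were higher and 8 lower, or 44.8% and 27.6%, where 35.3% and 34.7% of all tested genes were. The shares of members called at 50 mg/L against control thus lay near those of all genes. The median log2 fold change of the members was -0.27, 0.16 and 0.34 in the 3 comparisons, beside -0.03, 0.03 and 0.03 for all tested genes. Calls are at a Benjamini-Hochberg adjusted p under 0.05 in edgeR's quasi-likelihood test over 11140 genes.

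**Figure D1:**
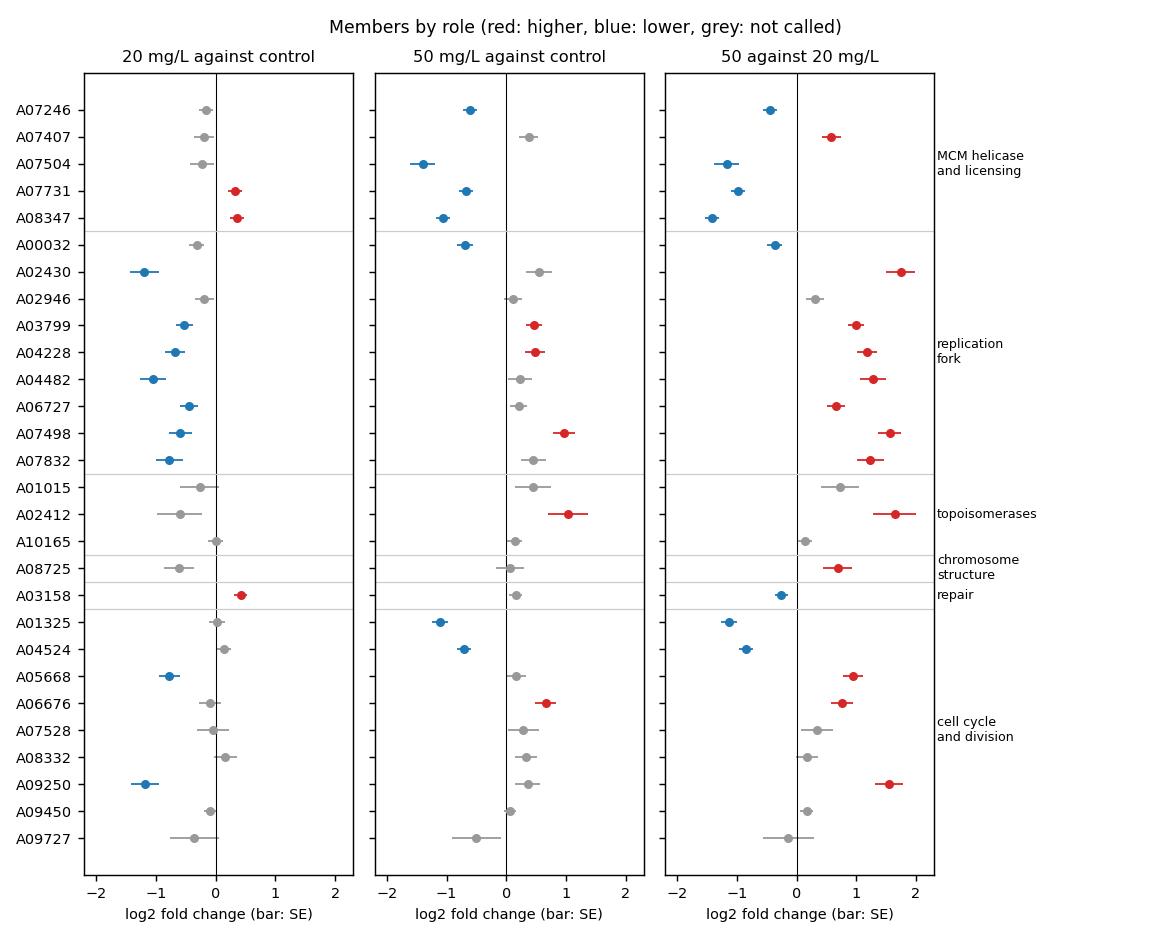
Log2 fold change (horizontal axis, bars: SE) of 28 of the genes in the 3 comparisons, ordered by role, with called rises in red, called falls in blue and genes without a call in grey. At 20 mg/L the blue points lie in the replication fork and cell cycle rows, and at 50 mg/L 4 of the 5 MCM genes are blue.

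The counts depended on the scaling and on single libraries. With library size alone 2 members rose and 11 fell at 20 mg/L (18.4% and 31.9% of all tested genes did), 14 rose and 7 fell at 50 mg/L (34.6% and 14.2% of all), and 19 were higher and 5 lower at 50 against 20 mg/L (48.8% and 20.3% of all). The members that gained a rise at 50 mg/L under this scaling were A02430, A03158, A06727, A07407, A07832, A08332, A09250, A09450 and A10165. Those that became higher at 50 than at 20 mg/L were A01015, A02946, A07528, A08332, A09450 and A10165. Leaving out Control 2, Control 3 or Cd20 3 left 1 rise at 20 mg/L, where 17.3% to 18.0% of all tested genes rose in place of 23.8%. The 5 rises at 50 mg/L against control became 2 without Control 1, Control 3 or Cd50 3. There were 3 without Cd50 2 and 9 without Control 2, while the 7 falls were 7 without any 1 library. Rises among all tested genes moved too, from 17.8% to 13.8%, 12.4% and 11.6% without Control 1, Control 3 and Cd50 3. Those rises were 11.8% without Cd50 2 and 19.4% without Control 2, and falls among all ran from 15.8% to 27.7%. Control 1 was the lowest Control library for 21 of 29 members (43.6% of all tested genes), and Cd50 1 was the lowest Cd50 library for 21 (45.5% of all). Without both of these libraries 4 members rose and 15 fell at 20 mg/L, where 32.9% and 33.6% of all tested genes did, and 8 rose and 8 fell at 50 mg/L, where 22.8% and 26.4% did.

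Among the MCM genes, 4 of 5 fell at 50 mg/L against control, where 21.8% of all tested genes did. At 20 mg/L against control 2 of these 4 rose slightly, as 23.8% of all tested genes rose, while the other 2 were not called. A07504, described as an MCM2/3/5 family gene, lies on chromosome 4 from 4141521 to 4151076 (coordinates as deposited, of an assembly that neither labels nor headers name). It stood at 642, 415 and 500 CPM in Control 1 to 3, 446, 456 and 424 in Cd20, and 276, 159 and 155 in Cd50. Every Cd50 library was below every other library, and Cd20 lay within the wide range of the controls. The log2 fold change at 50 mg/L was -1.40 (SE 0.21, adjusted p = 0.000343), and at 20 mg/L -0.23 (SE 0.21, adjusted p = 0.366).

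A08347, a further MCM2/3/5 family gene on chromosome 5 (3917492 to 3923379), had the lowest adjusted p of the whole group. Its level was 261, 216 and 231 CPM in Control, 291, 311 and 309 in Cd20, and 132, 101 and 106 in Cd50, so that the 3 groups did not overlap. It fell by 1.07 on the log2 scale at 50 mg/L against control (SE 0.12, adjusted p = 3.38e-05) and was lower by 1.43 at 50 against 20 mg/L (log2 fold change -1.43, SE 0.12, adjusted p = 1.52e-05). The rise at 20 mg/L was small (log2 fold change 0.36, SE 0.12, adjusted p = 0.0215) and did not pass when Control 2 (adjusted p = 0.0825), Control 3 (0.0731), Cd20 2 (0.0679) or Cd20 3 (0.0624) was left out.

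A07731, the third MCM2/3/5 family gene (chromosome 4, 5448506 to 5456718), followed the same order at a lower level. It read 42.6, 37.0 and 36.1 CPM in Control, 46.0, 44.7 and 53.9 in Cd20, and 24.8, 23.6 and 24.4 in Cd50, again without overlap between groups. Against control it was at 0.32 on the log2 scale at 20 mg/L (SE 0.12, adjusted p = 0.0358) and at -0.67 at 50 mg/L (SE 0.12, adjusted p = 0.00094). The rise at 20 mg/L was lost with library size alone (adjusted p = 0.161), upper quartile factors (adjusted p = 0.0982) and limma on log2(FPKM + 1) (adjusted p = 0.224). It was also lost without Control 2 (0.0973), Control 3 (0.137), Cd20 1 (0.0556) or Cd20 3 (0.147), values that are adjusted p. The MCM complex subunit A07246 (chromosome 4, 2614774 to 2620903) stood at 56.6 ± 2.27 CPM in Control, 50.3 ± 2.63 in Cd20 and 37.0 ± 5.11 in Cd50 (SD, n = 3), with log2 fold changes of -0.17 (adjusted p = 0.234) and -0.61 (adjusted p = 0.00165). Its fall at 50 mg/L passed in every edgeR and DESeq2 fit tried but not in limma on log2 FPKM with a pseudocount of 1 (adjusted p = 0.0569) or 0.1 (adjusted p = 0.0563), and its lower level at 50 than at 20 mg/L (-0.44) was lost with library size alone (-0.07, adjusted p = 0.647) and upper quartile factors (-0.18, adjusted p = 0.232).

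The fifth MCM gene, A07407, described as helicase mcm9, which in animals acts in recombination repair and not in origin firing, did not share these falls. It was at 8.19 ± 1.21 CPM in Control, 7.08 ± 0.814 in Cd20 and 10.6 ± 0.336 in Cd50, higher at 50 than at 20 mg/L (log2 fold change 0.58, adjusted p = 0.00771) and not called at 50 mg/L against control (0.38, SE 0.16, adjusted p = 0.0793). That last value passed without Control 2 (adjusted p = 0.0406) and with library size alone (adjusted p = 0.0158). Per length, the MCM genes differed widely in level: mean FPKM in Control was 148 ± 28.2 for A07504, 85.3 ± 5.67 for A08347, 20.8 ± 1.45 for A07246, 13.2 ± 0.798 for A07731 and 5.02 ± 0.873 for A07407. A07246 and A07731 were thus at the level of the fork genes, while A07504 and A08347 were several times above them.

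**Figure D2:**
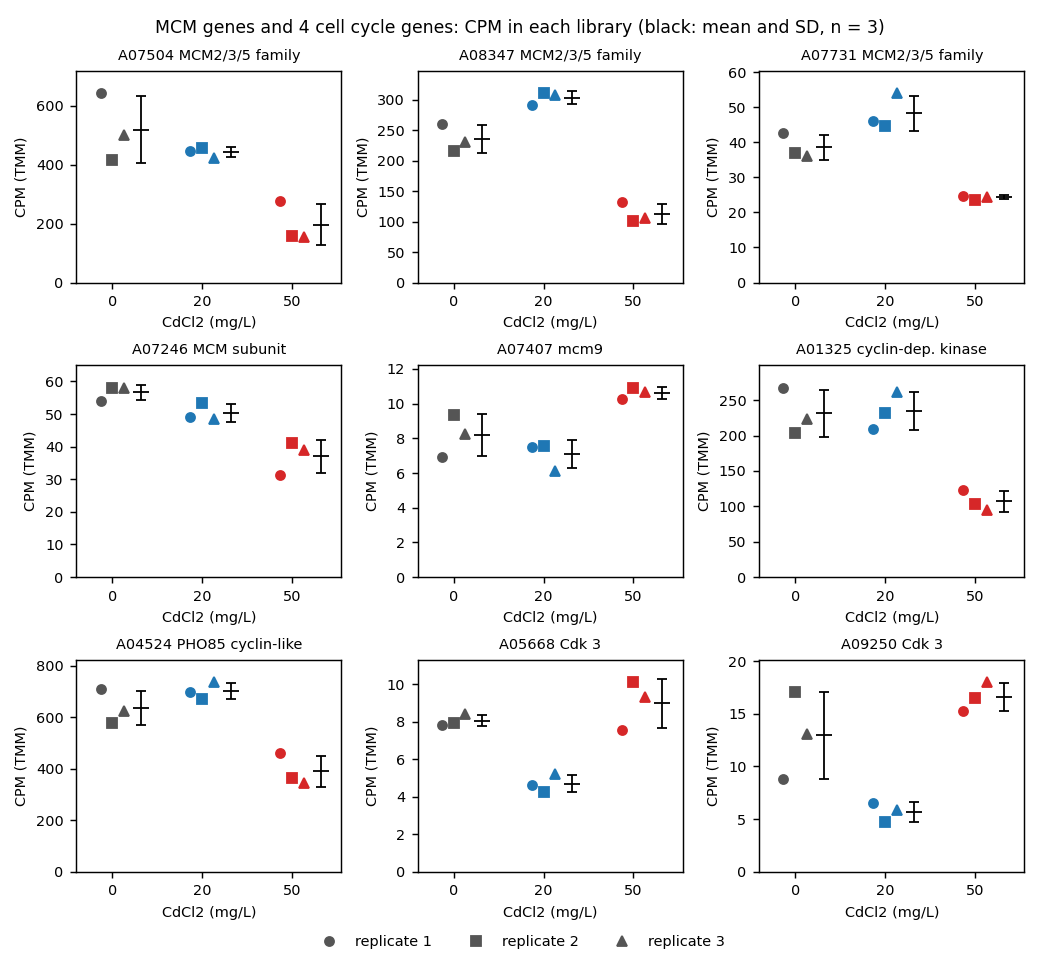
CPM (vertical axes, from 0, each panel with its own scale) of the 5 MCM genes and 4 cell cycle genes at 0, 20 and 50 mg/L CdCl2, with 1 symbol per library and the mean and SD (n = 3) in black. A07504, A08347, A07731, A07246, A01325 and A04524 are lowest at 50 mg/L, whereas both Cdk 3 genes, A05668 and A09250, are lowest at 20 mg/L.

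Of the 9 replication fork genes, 7 fell at 20 mg/L against control and 0 rose, and 7 were higher at 50 than at 20 mg/L. These are the 4 replication factor C genes, polymerase zeta, DNA ligase and a clamp gene. Both counts are 77.8% of the 9. Of all tested genes, 27.2% fell at 20 mg/L and 35.3% were higher at 50 than at 20 mg/L. Of the 9, 3 rose, 1 fell and 5 were not called at 50 mg/L against control. That is 33.3% and 11.1%, beside 17.8% and 21.8% of all tested genes. The median log2 fold change of the 9 was -0.59 at 20 mg/L and 0.45 at 50 mg/L. The summed level of the fork genes was 136, 198 and 173 CPM in Control 1 to 3, 118, 120 and 106 in Cd20 and 181, 214 and 214 in Cd50. Every Cd20 library was below every control, while Cd50 1 fell within the controls' range.

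The largest fall at 20 mg/L among all 29 genes was that of A02430, replication factor C subunit 4 (chromosome 14, 1706362 to 1708156), part of the clamp loader. It read 9.29, 18.0 and 13.1 CPM in Control, 7.23, 4.79 and 5.52 in Cd20, and 17.3, 21.1 and 20.1 in Cd50. Each Cd20 library was below each control, and the Cd50 libraries overlapped the controls at Control 2. The log2 fold change was -1.20 at 20 mg/L against control (SE 0.24, adjusted p = 0.00175) and 1.74 at 50 against 20 mg/L (SE 0.24, adjusted p = 0.000111). At 50 mg/L against control it was 0.54 (SE 0.22, adjusted p = 0.0667), which passed without Control 2 (adjusted p = 0.00834), without Cd50 1 (adjusted p = 0.037) and with library size alone (adjusted p = 0.0184).

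A04482, a replication factor C subunit without a number in its name (chromosome 1, 3402548 to 3404925), read 14.3, 25.9 and 19.1 CPM in Control, 11.2, 9.85 and 7.39 in Cd20, and 20.9, 25.0 and 23.2 in Cd50. Cd20 was below the controls in every library, and Cd50 lay inside their range. Its log2 fold changes were -1.05 at 20 mg/L (SE 0.22, adjusted p = 0.00203) and 0.23 at 50 mg/L (SE 0.20, adjusted p = 0.391).

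A07498, replication factor C subunit 2 (chromosome 4, 4105763 to 4108319), was the fork gene that rose most at 50 mg/L. It read 7.02, 9.45 and 8.75 CPM in Control, 5.11, 5.93 and 5.62 in Cd20, and 13.5, 15.4 and 20.1 in Cd50, with no overlap between any groups. The rise at 50 mg/L was 0.96 on the log2 scale (SE 0.18, adjusted p = 0.00143) and passed in every alternative tried. The fall at 20 mg/L (log2 fold change -0.59, SE 0.20, adjusted p = 0.025) did not pass when Control 2 (adjusted p = 0.0854), Control 3 (0.0722), Cd20 1 (0.0803) or Cd20 3 (0.0601) was left out. A03799, named RFC3, moved in the same order, with 17.5 ± 2.37 CPM in Control, 12.1 ± 0.610 in Cd20 and 24.1 ± 2.36 in Cd50. Its fall at 20 mg/L was -0.53 (adjusted p = 0.00934), and its rise at 50 mg/L was 0.47 (adjusted p = 0.0176), lost without Control 1 (0.0505), Control 3 (0.0541) or Cd50 3 (0.0713), values that are adjusted p.

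The remaining fork genes included a polymerase that copies past damaged bases. A04228, the putative catalytic subunit of polymerase zeta, which has that role in yeast and animals, was at 21.9 ± 4.43 CPM in Control, 13.5 ± 1.99 in Cd20 and 30.5 ± 1.97 in Cd50, without overlap between groups. It fell at 20 mg/L (log2 fold change -0.69, adjusted p = 0.0054) and rose at 50 mg/L (0.48, adjusted p = 0.0321), the rise being lost without Control 1 (0.0889), Control 3 (0.0816), Cd50 2 (0.0879) or Cd50 3 (0.0747), again adjusted p. The ATP-dependent DNA ligase A07832, of the enzymes that seal nicks, was at 12.7 ± 3.42, 7.38 ± 0.918 and 17.3 ± 3.66 CPM. Its log2 fold changes were -0.78 at 20 mg/L (adjusted p = 0.0141, but 0.0564, 0.0565 and 0.0581 on leaving out Control 2, Control 3 and Cd20 3) and 0.45 at 50 mg/L (adjusted p = 0.11, but 0.0372 without Cd50 1). The delta DNA polymerase A02946, which copies a strand at the fork, was not called in any comparison, at -0.19 (SE 0.16), 0.12 (SE 0.15) and 0.31 (SE 0.15) on the log2 scale. It passed without Control 1 at 20 mg/L (adjusted p = 0.0464) and at 50 against 20 mg/L without Control 1 (0.0316) or without Cd50 1 (0.0478). Other scalings gave 0.67 (library size alone, adjusted p = 0.005), 0.56 (upper quartile factors, adjusted p = 0.0127) and 0.60 (limma on log2(FPKM + 1), adjusted p = 0.0112) for 50 against 20 mg/L.

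A pair of genes carries the name DNA polymerase delta processivity factor, the sliding clamp known as PCNA, and they differed. A00032 (chromosome 10, 1021658 to 1024447) read 23.3, 23.4 and 22.5 CPM in Control, 18.4, 19.4 and 17.5 in Cd20, and 12.1, 14.4 and 16.2 in Cd50. Each step down was without overlap, although at 20 mg/L the change of -0.32 (SE 0.13) had an adjusted p of 0.0566. A00032 was called lower at 20 mg/L in 7 of 21 alternatives and not called in the other 14. Among the 7 were library size alone (-0.44, adjusted p = 0.0306), upper quartile factors (adjusted p = 0.034) and the fit without Cd50 1 (0.0308). At 50 mg/L it fell by 0.69 on the log2 scale (SE 0.13, adjusted p = 0.00154), and it was the fork gene that was lower at 50 than at 20 mg/L (-0.37, adjusted p = 0.0248), a call lost with library size alone (-0.01, adjusted p = 0.972) and without Cd20 1 (adjusted p = 0.0556), Cd20 2 (0.0871), Cd50 1 (0.0794) or Cd50 2 (0.0656). A06727 (chromosome 3, 5068466 to 5070547), under the same name, was at 22.2 ± 3.72 CPM in Control, 16.2 ± 1.89 in Cd20 and 25.6 ± 1.20 in Cd50. It fell at 20 mg/L (log2 fold change -0.45, adjusted p = 0.0258), a call lost without Control 2 (adjusted p = 0.0963), Control 3 (0.0929), Cd20 1 (0.0638) or Cd20 3 (0.0999), and at 50 mg/L it was at 0.21 (SE 0.15, adjusted p = 0.266). Per length the clamp genes stood close together in Control, at 27.9 ± 0.868 and 26.5 ± 5.15 FPKM. Their reads may be partly shared, since neither labels nor headers say how reads of similar copies were counted.

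**Figure D3:**
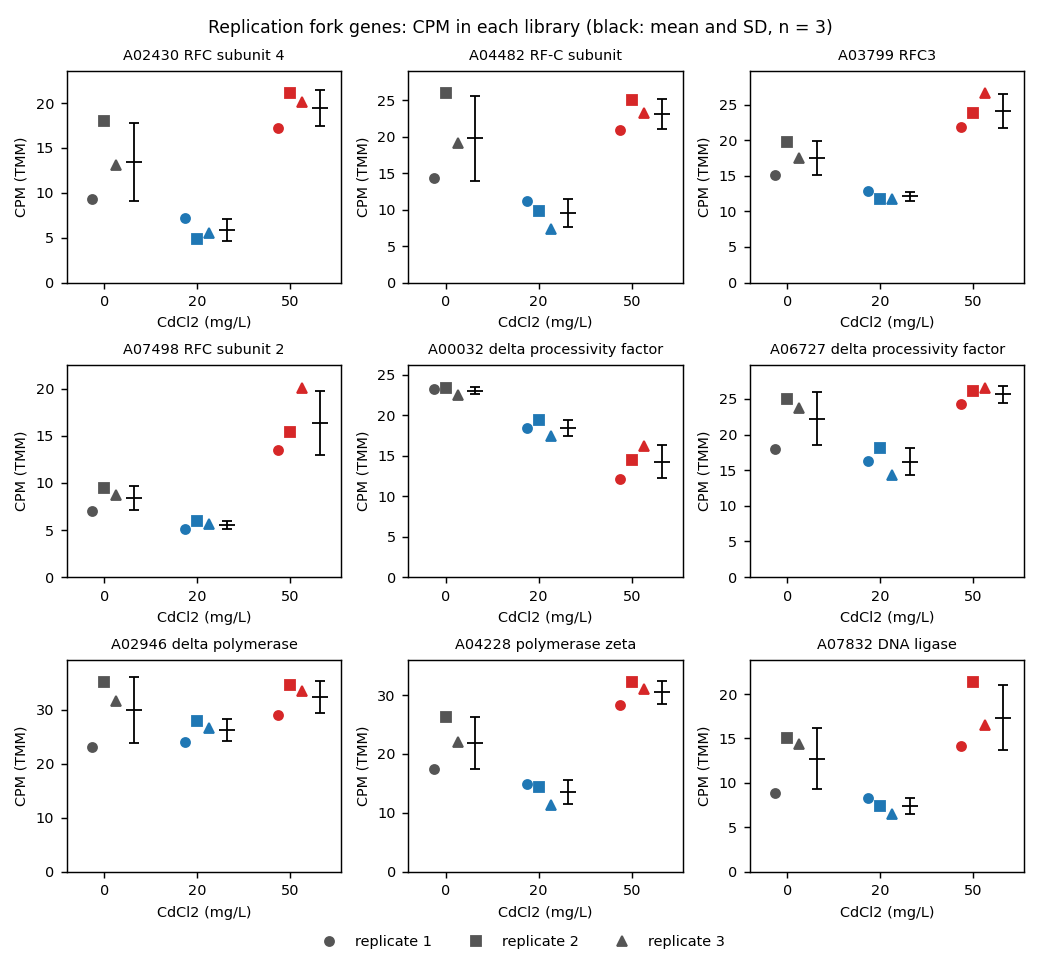
CPM (vertical axes, from 0, each panel with its own scale) of the 9 replication fork genes at 0, 20 and 50 mg/L CdCl2, with 1 symbol per library and the mean and SD (n = 3) in black. In 8 of the 9 panels the mean is lowest at 20 mg/L, and in A00032 it is lowest at 50 mg/L.

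Over the alternatives, the number of fork genes that fell at 20 mg/L varied and none rose. From 7 falls, the number became 8 with library size alone or upper quartile factors, 6 in limma with the gene length trend removed, 9 without Control 1 and Cd50 1, and 4 without Control 2, Control 3 or Cd20 3, with 0 rises in each. Of all tested genes, 27.2% fell as reported, and 31.9% and 30.5%, 25.0%, 33.6% and 21.3% to 21.4% in these fits, in the same order. The falls of A02430, A04482, A03799 and A04228 passed in all alternatives. The rises at 50 mg/L against control, 3 as reported, ranged from 1 (without Control 1, Control 3 or Cd50 3) to 6 (library size alone). Of all tested genes, 17.8% rose as reported, 11.6% to 13.8% without 1 of these libraries and 34.6% with library size alone.

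The topoisomerases, enzymes that relax twisted DNA, were read gene by gene, and 1 of 3 was called against control. That call was a rise at 50 mg/L, where 17.8% of all tested genes rose. A02412 (chromosome 14, 1593458 to 1600604) read 2.13, 4.81 and 3.50 CPM in Control, 2.51, 1.83 and 2.50 in Cd20, and 4.13, 9.81 and 7.14 in Cd50. Cd50 1 lay below Control 2, so Cd50 and Control overlapped, while every Cd50 library was above every Cd20 library. A02412 was higher at 50 than at 20 mg/L (log2 fold change 1.64, SE 0.36, adjusted p = 0.00164), a call that passed in all alternatives. The log2 fold change at 50 mg/L was 1.04 (SE 0.33, adjusted p = 0.0268), lost without Control 1 (adjusted p = 0.0818), Control 3 (0.0685), Cd50 2 (0.13) or Cd50 3 (0.0629) and in the fit of Control and Cd50 alone (0.0555), and at 20 mg/L it was -0.60 (SE 0.38, adjusted p = 0.2). A01015, also named DNA topoisomerase, read 3.44, 9.20 and 6.08 CPM in Control, 6.27, 5.32 and 3.75 in Cd20, and 6.92, 8.12 and 10.3 in Cd50. It was not called in any comparison (log2 fold changes -0.27, 0.45 and 0.72). At 50 mg/L against control it passed without Control 2 (adjusted p = 0.036). At 50 against 20 mg/L it passed without Control 1 (0.0157), Control 2 (0.0261) or Cd50 1 (0.0328) and with Cd20 and Cd50 fitted alone (0.0117). Other scalings gave 1.09 (library size alone, adjusted p = 0.0126) and 0.98 (upper quartile factors, adjusted p = 0.0225) for this comparison. In limma on log2(FPKM + 1) it was 0.61 (adjusted p = 0.0204). The putative topoisomerase I A10165 read 38.7, 43.0 and 46.6 CPM in Control, 38.1, 40.4 and 49.8 in Cd20, and 45.7, 48.4 and 47.2 in Cd50, with overlapping groups and log2 fold changes of 0.00 (SE 0.12) and 0.14 (SE 0.12) against control. The latter was 0.38 with library size alone (adjusted p = 0.0339).

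For chromosome structure the words found 1 gene, A08725, structural maintenance of chromosomes protein 2, which in other eukaryotes is a core part of condensin. It read 13.2, 25.3 and 20.2 CPM in Control, 11.1, 12.8 and 14.2 in Cd20, and 14.0, 22.0 and 25.0 in Cd50. Control 1 and Cd50 1 lay among the Cd20 libraries, so all groups overlapped. It was at -0.62 on the log2 scale at 20 mg/L (SE 0.25, adjusted p = 0.0557), and passed without Control 1 (adjusted p = 0.00752), without Cd50 1 (0.0193) and in DESeq2 (0.0435). The authors' deposited table lists it with an adjusted p of 0.0198 and a log2 fold change of -0.59. At 50 against 20 mg/L it was higher (0.68, adjusted p = 0.0277), a call lost without Cd20 1 (0.0961), Cd20 2 (0.065), Cd50 2 (0.0733) or Cd50 3 (0.116).

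The repair words found 2 genes, of which 1 rose and 0 fell at 20 mg/L, where 23.8% and 27.2% of all tested genes did. A03158, named for the helicase RAD25 (chromosome 16, 77654 to 87674), which in yeast opens DNA for nucleotide excision repair and for transcription, read 103, 78.1 and 91.6 CPM in Control, 119, 121 and 124 in Cd20, and 103, 101 and 101 in Cd50. Cd20 was above every other library. It rose by 0.42 on the log2 scale at 20 mg/L (SE 0.11, adjusted p = 0.00681) and was at 0.16 at 50 mg/L (SE 0.11, adjusted p = 0.249). The value at 50 mg/L was 0.40 with library size alone (adjusted p = 0.00603), 0.33 with upper quartile factors (adjusted p = 0.0136) and 0.39 in limma on log2(FPKM + 1) (adjusted p = 0.0146). At 50 against 20 mg/L it was at -0.26 (adjusted p = 0.0452), a direction that turned with library size alone (0.10) and a call lost without Control 3 (0.069), Cd20 1 (0.0782), Cd20 2 (0.0951), Cd20 3 (0.106), Cd50 2 (0.112) or Cd50 3 (0.1), values that are adjusted p.

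The 9 cell cycle genes split. Those that fell at 20 mg/L were the 2 named cyclin-dependent kinase 3, and 7 were not called. The 2 falls are 22.2% of the role, where 27.2% of all tested genes fell. Against control, 2 fell, 1 rose and 6 were not called at 50 mg/L. That is 22.2% and 11.1%, beside 21.8% and 17.8% of all tested genes, so the share of falls lay near that of all genes. A09250 (chromosome 6, 1738789 to 1741118) read 8.81, 17.1 and 13.1 CPM in Control, 6.55, 4.71 and 5.83 in Cd20, and 15.3, 16.5 and 18.0 in Cd50. Cd20 was below all other libraries, and Cd50 overlapped the controls at Control 2. Its log2 fold change was -1.19 at 20 mg/L (SE 0.23, adjusted p = 0.0015) and 1.55 at 50 against 20 mg/L (SE 0.23, adjusted p = 0.00017). Against control it was 0.36 at 50 mg/L (adjusted p = 0.193, and 0.0287 without Control 2).

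A05668 (chromosome 2, 4508919 to 4511063) shares the product name and the order of groups. It read 7.85, 7.96 and 8.41 CPM in Control, 4.63, 4.27 and 5.20 in Cd20, and 7.55, 10.1 and 9.34 in Cd50. Cd20 was again below all other libraries, and Cd50 overlapped Control. The log2 fold change was -0.78 at 20 mg/L (SE 0.17, adjusted p = 0.00325) and 0.94 at 50 against 20 mg/L (SE 0.17, adjusted p = 0.000555). The falls of both genes at 20 mg/L passed in all alternatives.

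The kinase and the cyclin-like gene of highest CPM in this role fell at 50 mg/L. A01325, a cyclin-dependent serine/threonine protein kinase (chromosome 12, 667508 to 674255), read 267, 203 and 224 CPM in Control, 209, 232 and 262 in Cd20, and 123, 103 and 94.5 in Cd50. Cd50 was apart from all other libraries, and Cd20 lay within the controls. It fell by 1.11 on the log2 scale (SE 0.14, adjusted p = 7.18e-05), with 0.02 (SE 0.13) at 20 mg/L. A04524, a cyclin-like gene named for interaction with PHO85 (chromosome 1, 3673805 to 3675511), a budding yeast kinase known for phosphate signalling as well as the cell cycle, read 709, 579 and 623 CPM in Control, 698, 672 and 735 in Cd20, and 460, 364 and 345 in Cd50. It too was lower in every Cd50 library than in any other, with -0.71 at 50 mg/L against control (SE 0.12, adjusted p = 0.000744) and 0.14 (SE 0.12, adjusted p = 0.342) at 20 mg/L. Without A04524, whose named partner serves phosphate signalling, 6 of the other members fell at 50 mg/L in place of 7.

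The cyclin-dependent protein kinase A06676 went the other way. It was at 8.10 ± 1.13 CPM in Control, 7.57 ± 1.54 in Cd20 and 12.8 ± 1.27 in Cd50, higher at 50 mg/L than in Control (log2 fold change 0.66, SE 0.18, adjusted p = 0.0115) in all alternatives. The regulatory subunit A09450, of the small proteins that bind cyclin-dependent kinases, had 72.7 ± 5.81, 67.7 ± 5.21 and 75.9 ± 3.59 CPM and no call (0.06, SE 0.10, at 50 mg/L against control). With library size alone it was at 0.30 at 50 mg/L (adjusted p = 0.0442) and 0.53 at 50 against 20 mg/L (adjusted p = 0.0014), and the latter also passed with upper quartile factors and in both limma fits on FPKM. The cyclin-like A07528, the cyclin N-terminal domain gene A08332 and the G2/mitotic-specific cyclin A09727 were not called either, with log2 fold changes from -0.50 to 0.33 against control. The last of these, of the cyclins that drive entry into mitosis, had 8 to 30 counts per library, and its SE at 20 mg/L was 0.41, so that only large changes could have been detected.

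Read across the 3 comparisons, 6 genes fell at 20 mg/L, were higher at 50 than at 20 mg/L and were not called at 50 mg/L against control: A02430, A04482, A06727, A07832, A05668 and A09250. This order held for 20.7% of the members and 15.6% of all tested genes. A further 3 (A03799, A04228 and A07498) were below control at 20 mg/L and above it at 50 mg/L, 10.3% of members beside 3.18% of all. The opposite order, above control at 20 and below at 50 mg/L, held for A07731 and A08347, 6.90% beside 2.94%. Fall at 50 mg/L with no call at 20 mg/L was found for A00032, A01325, A04524, A07246 and A07504, 17.2% beside 10.8%. No call in any comparison was made for 8 members, 27.6% beside 18.3%. The comparisons share their libraries, so these orders are a description.

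Members lay on 14 chromosomes of the deposited table, and 7 of 29 (24.1%) were on chromosome 4, which holds 7.92% of all genes. There, replication factor C subunit 2 (A07498) and the MCM gene A07504 lie 33201 bases apart and went in opposite directions at 50 mg/L. Members with a high level tended to be lower at 50 mg/L. Across the 29 members, the Spearman correlation of the mean FPKM over 9 libraries with the log2 fold change at 50 mg/L against control was -0.52, and across 11140 genes it was -0.34. These were 0.39 and 0.21 at 20 mg/L against control. Genes share libraries and scaling and are not independent, so no test was made. By CPM, the 4 highest members (A04524, A07504, A01325 and A08347) held 74.6% of the summed level of all members in Control, 76.9% in Cd20 and 57.7% in Cd50. The sum of all 29 went from 2177 ± 190 CPM in Control to 2187 ± 49.6 in Cd20 and 1397 ± 120 in Cd50, and without these 4 genes from 554 ± 46.1 to 506 ± 7.25 and 591 ± 40.7.

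**Figure D4:**
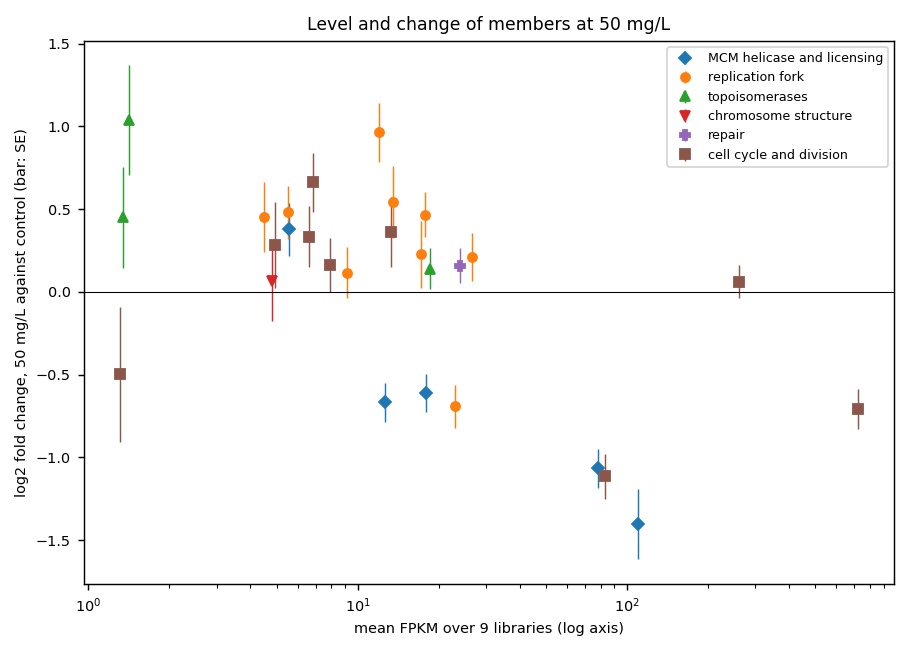
Mean FPKM over the 9 libraries (horizontal log axis) and log2 fold change at 50 mg/L against control (vertical axis, bars: SE) for 28 of the genes, marked by role. The genes with the strongest falls, A07504, A01325 and A08347, are among the 5 with the highest FPKM, and A09450, second in level, lies at 0.06.

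Other genes of replication, repair, chromatin and the cell cycle were taken from product words that the members' rule did not use. These words matched 76 genes, and 5 that name only a histone-modifying enzyme, 4 of which passed the filter on low counts, were left out. Of the other 71, 25 passed this filter, most of the rest being histone copies with few or no counts. At 20 mg/L against control 8 rose and 2 fell, or 32% and 8%, where 23.8% and 27.2% of all tested genes did. At 50 mg/L 7 rose and 6 fell, or 28% and 24%, beside 17.8% and 21.8% of all. At 50 against 20 mg/L 7 were higher and 8 lower, or 28% and 32%, beside 35.3% and 34.7% of all. These counts also moved with the scaling. With library size alone 6 rose and 3 fell at 20 mg/L, where 18.4% and 31.9% of all tested genes did. On this scale 11 rose and 4 fell at 50 mg/L, beside 34.6% and 14.2% of all. At 50 against 20 mg/L 12 were then higher and 7 lower, beside 48.8% and 20.3% of all. Leaving out Control 3, Cd20 1 or Cd20 2 gave 6 rises and 1 fall at 20 mg/L. In those fits 17.3% to 19.2% of all tested genes rose and 21.4% to 23.1% fell. Without Control 1, Cd50 2 or Cd50 3 there was 1 fall too, where 25.2% to 29.7% of all fell. For nucleotide supply, thymidine kinase (A06984), which salvages thymidine, rose at 20 mg/L from 12.9 ± 0.589 to 24.4 ± 2.34 CPM (log2 fold change 0.92, adjusted p = 0.000785). Thymidylate synthase (A00407), which makes the thymine nucleotide anew, was at 133 ± 17.0 CPM in Control and 135 ± 2.83 in Cd20 and fell at 50 mg/L to 86.4 ± 12.0 (-0.62, adjusted p = 0.00193). Of 9 measured chromatin genes, 2 rose and 1 fell at 20 mg/L, or 22.2% and 11.1%, beside 23.8% and 27.2% of all tested genes. At 50 mg/L 4 rose and 1 fell, or 44.4% and 11.1%, beside 17.8% and 21.8% of all. Without Control 3, Cd20 1 or Cd20 2 1 rise and 0 falls were left at 20 mg/L. Without Control 2 or Cd20 3 there were 1 and 1, and without Control 1, Cd50 2 or Cd50 3 there were 2 and 0. Of all tested genes, 17.3% to 27.4% rose and 21.3% to 29.7% fell in these fits. At 50 mg/L 1 of the 4 rises, that of A02916, was not called with the replicate block (adjusted p = 0.0547), in DESeq2 or without any 1 library other than Control 2. Histone copies share product names and may share reads, so single ones are uncertain.

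Among the 14 remaining genes, 5 rose and 1 fell at 20 mg/L, or 35.7% and 7.14%, beside 23.8% and 27.2% of all tested genes. At 50 mg/L 3 rose and 4 fell, or 21.4% and 28.6%, beside 17.8% and 21.8% of all. The latter counts became 6 and 2 with library size alone (34.6% and 14.2% of all). Without Cd50 1 they were 5 and 4 (22.6% and 27.7% of all). The named examples that follow were chosen after their values were seen. The DNA glycosylase A06894, of the enzymes that cut out damaged bases, rose from 47.4 ± 6.50 to 91.9 ± 6.32 CPM at 20 mg/L (log2 fold change 0.95, adjusted p = 5.76e-05) and stood at 63.7 ± 2.60 at 50 mg/L (0.42, adjusted p = 0.0122). The excision repair gene A09378 fell at 20 mg/L (-1.05, adjusted p = 0.000812). A DNA helicase gene, A07525, went from 220 ± 23.8 CPM in Control and 217 ± 8.96 in Cd20 to 88.4 ± 1.78 in Cd50 (-1.31, adjusted p = 2.26e-06). The dmc1-like gene A01760, whose relatives in yeast and animals act in meiotic recombination, rose at 50 mg/L from 4.36 ± 0.866 to 12.3 ± 1.46 CPM (1.51, adjusted p = 0.000223).

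Of the members, 13 are listed at 20 mg/L, 12 at 50 mg/L and 22 at 50 against 20 mg/L in the authors' deposited tables, where 44.5%, 29.4% and 58.9% of all 12605 genes are listed. All members called by edgeR were among them, with the same direction. The additional ones were A08725 at 20 mg/L and A01015 at 50 against 20 mg/L. The 12605 genes include 1465 that the filter on low counts removed, whereas all members passed it. The shares of all genes listed are thus on a wider base than the members.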

How the data were processed

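Work started from the deposited values. Per the labels, strand-specific poly(A) libraries were made with the dUTP method. STAR 2.7.10a, StringTie 2.2.1 and DESeq2 1.34.0 appear in the submitters' processing notes without a role. How reads were counted, with or without strand, and on which assembly and annotation, is stated in neither labels nor headers, which leaves overlapping or similar genes uncertain. The authors deposited raw counts by gene and library. The deposited FPKM values divide them by listed length and column total (100% recomputed within 1%). The authors' deposited tables give log2 fold changes, p-values and, per the file headers, group means of normalised counts (a signal not used here).

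Tests were run with edgeR 4.0.16 under R 4.3.3 (filterByExpr, TMM, quasi-likelihood F-test, group as the only factor, 9 libraries in 1 fit), adjusted over 11140 genes. The biological coefficient of variation was 0.139. Each SE is the log2 fold change divided by the square root of F. Alternatives used DESeq2 1.42.0 and limma 3.58.1 (log2 FPKM with a pseudocount of 1 or 0.1, and log2 CPM). In counts simulated for each comparison, 67, 67 and 66 of 11140 genes were changed 1.5-fold, 2-fold and 4-fold. For 20 mg/L against control, 46.3%, 77.6% and 97.0% of these were recovered. These shares were 43.3%, 73.1% and 97.0% for 50 mg/L against control and 17.9%, 70.1% and 97.0% for 50 against 20 mg/L. False calls were 6.37%, 6.58% and 4.65% of the calls, in the same order. Far fewer genes changed there than were called in the data (23.8% higher and 27.2% lower at 20 mg/L against control). The adjustment depends on how many genes change, so the recovered shares do not tell how many real changes the reported tests missed.

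Members, roles, lists and alternatives were chosen with earlier results of these data known. The values of 1 member are not reported here, and it remains in the counts, medians and sums over members. In each role and comparison the 2 genes of lowest adjusted p, and the other genes of roles with 4 or fewer, were to be shown by library. Deviations from group means of libraries with the same replicate number correlated at 0.594, 0.449 and 0.186 for 50 mg/L against control, all over 0.1, the level set for calling libraries paired. The labels give no meaning to the numbers, the values printed come from the fit without a block, and a fit with the replicate block is an alternative. For 20 mg/L against control (-0.167, 0.056 and -0.045) and 50 against 20 mg/L (-0.214, 0.132 and -0.218) they do not pair the libraries.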

Additional observations from a re-analysis of the deposited data

Results flagged for a closer look

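For 5 members the changes against control at 20 and at 50 mg/L were both called and opposite in sign. Lower at 20 and higher at 50 mg/L were 10.3% of members and 3.18% of all tested genes. The reverse held for 6.90% and 2.94%. Every tested gene with such opposite calls was also called between the doses, from the same libraries. That call therefore follows from how the 5 were picked and adds no support. The log2 fold change at 50 against 20 mg/L was 0.99 for A03799, 1.17 for A04228 and 1.56 for A07498 (lower at 20, higher at 50 mg/L), and -0.99 for A07731 and -1.43 for A08347 (higher at 20, lower at 50 mg/L). All 5 differences passed in every alternative tried, whereas some of the calls against control did not, as given with each gene.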

How the results depend on the processing

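Of 1764 values of single members under 21 alternatives, 1574 kept direction and call, 65 lost and 90 gained a call and 35 changed sign. With library size alone, upper quartile factors and limma on log2 FPKM with a pseudocount of 1 or 0.1, members higher at 50 mg/L numbered 14, 8, 14 and 13 (5 as reported) and members lower at 50 against 20 mg/L 5 in each (8 as reported). Of all tested genes, 34.6%, 28.0%, 34.0% and 33.0% rose at 50 mg/L in these fits (17.8% as reported). At 50 against 20 mg/L 20.3%, 24.6%, 20.4% and 20.4% of all were lower (34.7% as reported). Without Control 1 and Cd50 1, 15 members fell at 20 mg/L (33.6% of all tested genes) and 8 rose at 50 mg/L (22.8% of all). Leaving out 1 library gave 1 to 3 rises and 6 to 11 falls at 20 mg/L, 2 to 9 and 7 to 7 at 50 mg/L, and 12 to 15 and 6 to 8 at 50 against 20 mg/L. Over all genes this gave 4304 to 6361, 3051 to 5603 and 6761 to 8245 calls. With the replicate block, the members called numbered 3 higher and 10 lower at 20 mg/L, 5 and 7 at 50 mg/L, and 14 and 8 at 50 against 20 mg/L. Of all tested genes, 26.3% and 28.2%, 19.8% and 23.5%, and 35.6% and 35.7% were then higher and lower. The block changed no member's call at 50 mg/L against control. In the comparisons without pairing it added A08725 at 20 mg/L (adjusted p = 0.0101) and A02946 at 50 against 20 mg/L (adjusted p = 0.0425). The limma fits on log2 CPM, with and without the length trend, were chosen after seeing the data. A member without a call is not shown to be unchanged, most of all A09727 with its low counts.

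Sign changes were in values that stood between -0.27 and 0.12 as reported. Of these, A03158 alone had been called, and the cause was not tested. In A10165 at 20 mg/L the value was -0.12, -0.095, -0.12 and -0.13 with library size alone, upper quartile factors and limma on FPKM with a pseudocount of 1 or 0.1, -0.057 without Control 1 and Cd50 1, -0.0033 with the replicate block, and -0.0053 and -0.0075 in limma on log2 CPM without and with the length trend removed. A01325 was at -0.10, -0.068, -0.10 and -0.10 with the same 4 scalings, and A07528 at 0.027 with the length trend removed. Between 50 and 20 mg/L, A03158 was at 0.10, 0.096 and 0.099 with library size alone and limma on FPKM with a pseudocount of 1 or 0.1, and A09727 at 0.21, 0.11, 0.13 and 0.23 with the 4 scalings. Leaving out 1 library turned the sign within a range of -0.12 to 0.077 for A10165, -0.069 to 0.15 for A01325, -0.22 to 0.15 for A07528, -0.56 to 0.12 for A01015 and -0.27 to 0.0064 for A06676 at 20 mg/L. The ranges were -0.021 to 0.25 for A02946 and -0.14 to 0.29 for A08725 at 50 mg/L, and -0.38 to 0.13 for A09727 at 50 against 20 mg/L, while A03158 stayed between -0.27 and -0.24.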
